A study of Rattus norvegicus with 27 samples.

Results

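The receptors of the epidermal growth factor (EGF) family and their ligands were followed through the development of the rat parotid acinar cell, the cell that makes the enzyme-rich saliva of this gland. The genes were taken by name: the receptor genes Egfr, Erbb2, Erbb3 and Erbb4, the ligand genes Egf, Areg, Tgfa, Hbegf and Btc, and the neuregulin gene Nrg1. Every probe set of the array that carried only 1 of these symbols was used, which gave 20 probe sets of 10 genes among 31042 probe sets tested and 14217 named genes. Acinar cells were cut from tissue sections of Sprague Dawley rats by laser capture microdissection at 9 ages, with 3 arrays at each. The ages ran from 18 days of gestation (E18) over E20 and the day of birth (P0) to postnatal day 25 (P25), with P2, P5, P9, P15 and P20 between them. All were untreated animals with no named genetic change, and per the study's methods each array of an age came from another litter.

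The study joined the ages into stages drawn on these same arrays, and they are used here: stage 1 is E18, E20 and P0 (9 arrays), stage 2 is P2 and P5, stage 3 is P9 and P15, and stage 4 is P20 and P25 (6 arrays each). Per the methods, whole heads were cut into sections at the ages up to P5, and glands were first dissected out at P9 and later. Stage 4 against stage 3 therefore lay within the dissected gland, and stage 2 against stage 1 within sectioned heads. Age and the way of sectioning cannot be told apart in stage 3 against stage 2, in stage 4 against stage 1, or in P25 against E18. Values are log2 levels after robust multi-array averaging (RMA), so a difference of 1 is a doubling of the signal, and levels of different probe sets are not compared with each other.

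The ERBB receptors are tyrosine kinases of the cell surface that work in pairs. EGF, amphiregulin, TGF-alpha, HB-EGF and betacellulin bind EGFR, and HB-EGF and betacellulin also bind ERBB4. Neuregulin 1 binds ERBB3 and ERBB4, while ERBB2 has no known ligand of its own and ERBB3 has little kinase activity, so both act mainly as partners. The ligands are made as membrane-bound precursors and are shed by metalloproteases. Receptor pairs signal through RAS and ERK, through PI3-kinase and AKT, and through phospholipase C gamma. In rodents EGF is an abundant product of salivary glands, and EGFR and neuregulin signaling both bear on the branching of the embryonic gland.

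The genomic sequence just before the starts of Egf and Egfr is shown because the data on these genes are the firmest among the members, the ligand being higher and its receptor lower at the end of the course. RefSeq places Egf on chromosome 2 (82672 bases long, minus strand) and Egfr on chromosome 14 (172733 bases long, plus strand) of the build GRCr8. Capitals mark matches to the motifs searched, 5′ to 3′ on the strand of the gene. The Egf stretch is chr2:220976332-220976547, 216 bases that end where the annotated gene begins, and the Egfr stretch is chr14:95378376-95378625, the 250 bases before its start.
Egf: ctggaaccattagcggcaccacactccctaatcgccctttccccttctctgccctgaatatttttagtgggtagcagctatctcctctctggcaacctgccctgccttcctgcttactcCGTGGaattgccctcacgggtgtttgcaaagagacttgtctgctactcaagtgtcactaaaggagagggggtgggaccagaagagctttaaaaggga
Egfr: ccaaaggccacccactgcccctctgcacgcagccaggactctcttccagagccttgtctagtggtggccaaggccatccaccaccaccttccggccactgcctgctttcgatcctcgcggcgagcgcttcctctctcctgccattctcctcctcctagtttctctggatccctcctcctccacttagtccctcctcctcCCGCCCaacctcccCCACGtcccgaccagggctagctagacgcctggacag

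Short motifs were searched on both strands over the 250 bases before each start in the RefSeq promoter table, in which 8 of the 10 genes had an entry (not Erbb3 or Nrg1). CCACG, the core that the secretory regulator XBP1 can bind, matched once in Egf on the reverse strand and once in Egfr, and it occurred in 27.2% of all 33469 promoters. GGGCGG, the GC box, matched once in Egfr on the reverse strand and not in Egf, against 30.5% of all promoters. TATAAA (12.9% of all promoters), CAGCTG (12%), an E-box, and TGANTCA (6.34%), the AP-1 motif, matched neither gene. No matches overlapped. Of the other members, GGGCGG matched in Erbb2, Erbb4, Areg, Tgfa and Btc, CCACG in Erbb4, and TATAAA and CAGCTG in Areg, while Hbegf held none of the motifs. The annotated gene span covered 110 of the 250 bases of Erbb2, 170 of Tgfa, 34 of Egf and 27 of Erbb4. The GGGCGG matches of Erbb2 and Tgfa lay inside that span. GC content was 51.6% before Egf and 63.6% before Egfr, against a median of 51.2% over all promoters. A match is a run of letters and not a bound site.

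Of the member probe sets, 6 of 20 (30%) changed over the 9 ages in limma's F test at an adjusted p under 0.05, against 24.5% of all probe sets. They belonged to 3 genes: Egf, Egfr with 2 of its 3 probe sets, and Nrg1 with 3 of its 8. The single probe sets of Erbb2, Erbb3, Erbb4, Areg, Hbegf and Btc and both probe sets of Tgfa did not pass. In stage 4 against stage 1, 1 of 20 probe sets was higher (5%), against 27.2% of all probe sets, and 8 were lower (40%), against 17.8%. The 8 were 2 probe sets of Egfr and 6 of Nrg1, so they stand for 2 genes and not for 8 separate observations. The median change of the 20 was -0.50, and that of all probe sets was 0.19.

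**Figure D1:**
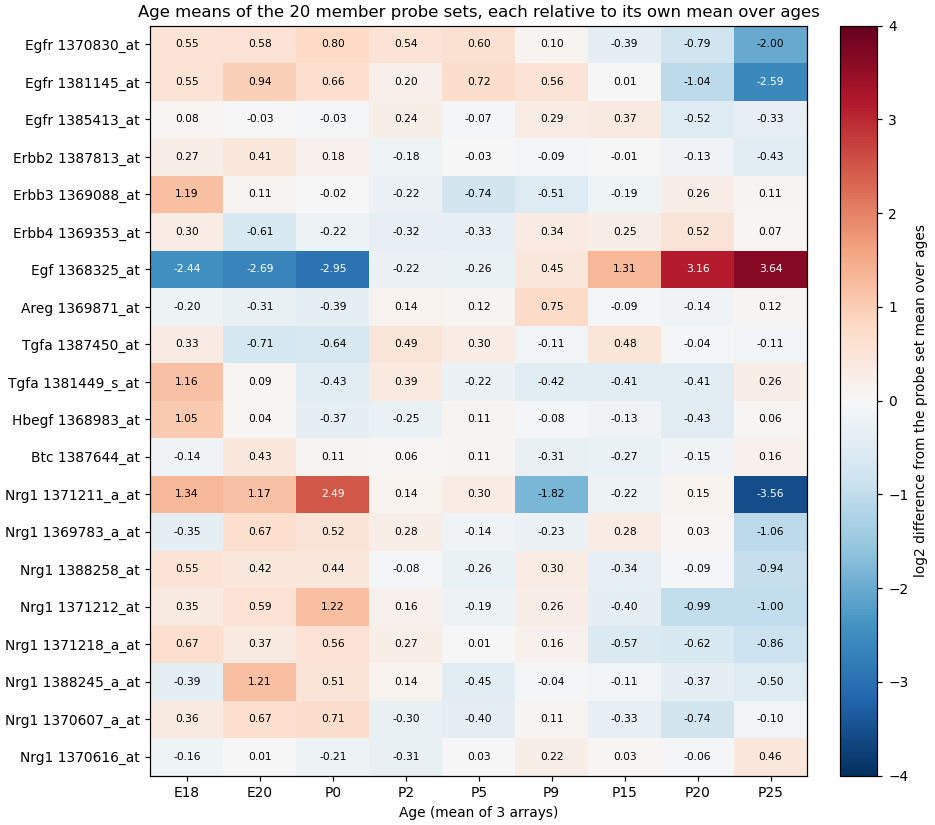
Mean log2 RMA value of each of the 20 member probe sets at each age (3 arrays), shown as the difference from that probe set's own mean over the 9 ages. Egf runs from low before birth to high at P20 and P25, the 2 brighter Egfr probe sets run the other way with their lowest values at P25, and the rows of Erbb2, Erbb4, Areg and Btc stay within 1 log2 unit of their own means.

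Among the receptors, Egfr, the receptor for EGF and the other ligands of its class, fell late in development. Its brightest probe set (1370830_at) read 7.16, 7.73 and 6.33 at P25 and 9.37, 7.78 and 7.72 at P20. It read 8.39, 8.66 and 9.02 at P15 and 9.46, 9.32 and 8.76 at P9. The 15 arrays up to P5 lay between 9.21 and 10.20, so the level held through birth and the first postnatal days and was lower on nearly all arrays from P15 on. P20 replicate 1 was the exception, with a value inside the range of the stage 1 arrays.

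The stage means of this Egfr probe set were 9.72 ± 0.33 (SD, n = 9) in stage 1, 9.64 ± 0.26 in stage 2, 8.93 ± 0.41 in stage 3 and 7.68 ± 1.00 in stage 4 (SD, n = 6 each). Stage 4 was 2.04 ± 0.25 log2 units lower than stage 1 (SE), which is a 4.11-fold difference (limma, adjusted p = 2.6e-06). Against stage 3 the log2 change was -1.25 ± 0.28 (adjusted p = 0.00678), in a comparison in which 1 of 20 member probe sets was higher, against 4.09% of all, and 2 were lower, against 4.27%. With only the arrays of these 4 ages in the fit, the change was the same in size but missed the threshold (adjusted p = 0.0616). Stage 2 differed from stage 1 by -0.08, with a 95% interval of -0.60 to 0.45.

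A second Egfr probe set (1381145_at) had the same late course with less overlap. It read 5.77, 5.01 and 6.82 at P25 and 7.42, 7.43 and 7.40 at P20, and all 6 arrays of stage 4 lay below all others. The 6 arrays of stage 3 ranged from 7.86 to 10.24 with a median of 8.53, and the 9 of stage 1 from 8.63 to 9.50 with a median of 9.25. The log2 change was -2.53 ± 0.28 in stage 4 against stage 1 (adjusted p = 5.13e-07) and -2.10 ± 0.31 in stage 4 against stage 3 (adjusted p = 0.000139). It was also called in the contrast of stages 2 and 3 with stages 1 and 4 (0.92 ± 0.21, adjusted p = 0.0141), where 1 of 20 members was higher against 2.05% of all probe sets and 0 were lower against 1.34%. The stage means show no mid-development maximum behind that call: they were 9.17 in stage 1, 8.91 in stage 2, 8.74 in stage 3 and 6.64 in stage 4. The call was lost without 4 arrays of high epidermis marker level (0.87, adjusted p = 0.0554) and with marker covariates (0.62, adjusted p = 0.46). The 4 arrays are P5 replicate 2 and replicate 1 of E18, E20 and P0.

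The third Egfr probe set (1385413_at) was dim, with a mean of 4.91 over the 27 arrays, and ranged from 4.17 to 4.92 in stage 4 and from 4.04 to 5.63 in stage 1. Its change in stage 4 against stage 1 was -0.43, with a 95% interval of -0.98 to 0.12 (adjusted p = 0.19). The 3 probe sets of Egfr thus had changes of the same sign in both comparisons of stage 4, and the dim one did not pass the test. In P25 against E18 the brightest probe set changed by -2.56 ± 0.39 (adjusted p = 7.75e-05) and 1381145_at by -3.14 ± 0.43 (adjusted p = 2.28e-05). In that comparison 1 of 20 members was higher, against 20.1% of all probe sets, and 4 were lower, against 13.4%.

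**Figure D2:**
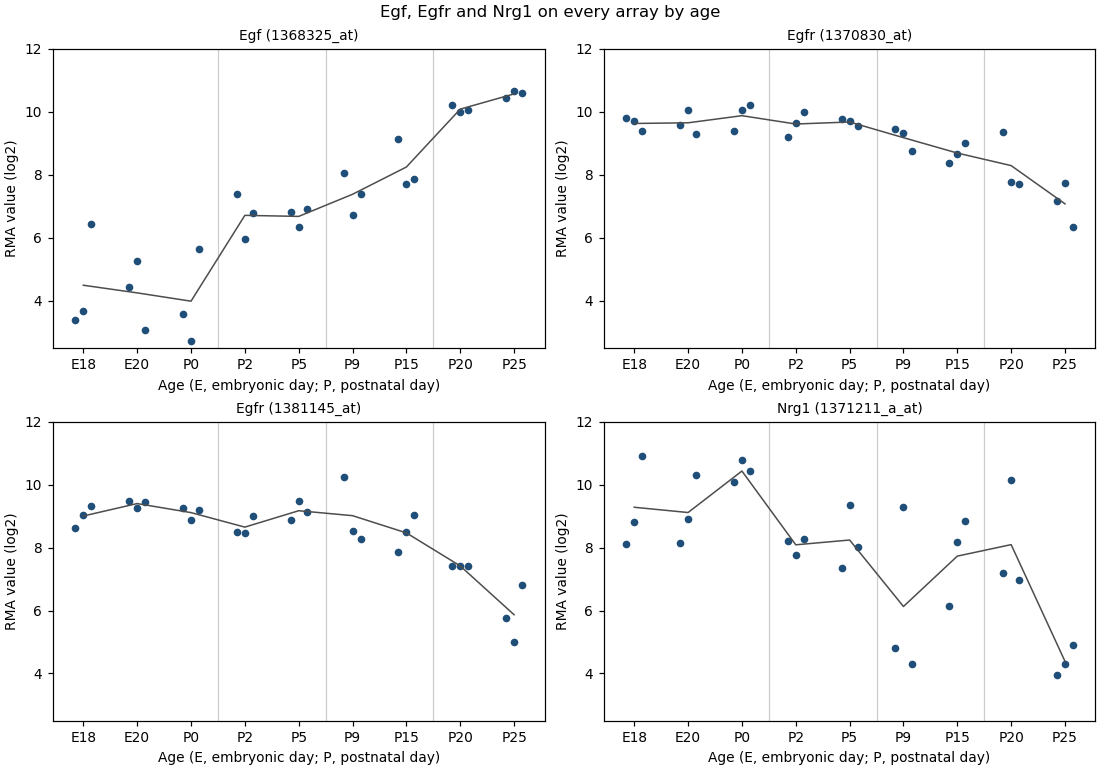
Log2 RMA value of Egf, of 2 probe sets of Egfr and of the brightest Nrg1 probe set by age. Points are single arrays (3 at each age), the line joins the age means, and vertical lines part the 4 stages. All 6 Egf values of P20 and P25 lie above 9.9 and all 9 values of E18, E20 and P0 below 6.5, while Egfr is lowest at P25 and Nrg1 is scattered from P9 to P20 before 3 low values at P25.

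Bulk samples of captured cells cannot tell fewer cells of a type from less RNA per cell, and this holds for every result here. Markers of some other cells were lower as well in stage 4 against stage 3, where 5.27% of all named genes were lower and 5.02% higher. No gene of the endothelium, Schwann cell, skeletal muscle, adipocyte or macrophage lists was called in that comparison. The fibroblast list (Col1a1, Col1a2, Col3a1, Pdgfra, Dcn, Lum) had 5 of 6 genes lower in stage 4 against stage 3, and its mean level ranged from 9.83 to 10.92 in stage 4 and from 11.03 to 11.69 in stage 3. The basal and myoepithelial list had 3 of 6 lower in the same comparison, Krt5, Krt14 and Cnn1, with a mean level of 7.73 to 9.10 in stage 4 and 9.50 to 10.40 in stage 3. The duct list had 3 of 8 lower, Krt19 (-1.56), Krt7 (-1.24) and Ascl3 (-1.36), and 1 higher, Kcnn4 (1.48), with a mean level of 6.58 to 7.16 in stage 4 and 6.69 to 7.49 in stage 3. Of the tissue outside the gland, 2 of 6 epidermis and hair follicle genes and 1 of 4 cartilage genes were lower. With the marker levels of cartilage, epidermis and muscle as covariates in limma, both brighter Egfr probe sets were still called in stage 4 against stage 3. Their changes were -1.18 (adjusted p = 0.0312) for the brightest and -2.24 (adjusted p = 0.000458) for 1381145_at. Beyond that fit the part of these lists in the result was not tested.

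Erbb2, the receptor that partners the others, changed little. It ranged from 6.18 to 7.21 in stage 4, with a median of 7.05, and from 7.06 to 7.87 in stage 1, with a median of 7.46. The change in stage 4 against stage 1 was -0.57 ± 0.24, which fell just short of the threshold (adjusted p = 0.0549), with a 95% interval of -1.06 to -0.08. In a separate fit, with each gene taken as the mean of its probe sets, the same change passed it (adjusted p = 0.0475).

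Erbb3, which binds neuregulin and signals through its partner, was highest on 2 of the 3 arrays of E18, at 9.08 and 8.84, and the other read 7.42. From E20 on no array was above 8.39, which was P25 replicate 1. The age means were 8.45 at E18, 7.37 at E20, 6.52 at P5 and 7.37 at P25, and the F test did not pass (adjusted p = 0.0984). P25 differed from E18 by -1.08 ± 0.47 (adjusted p = 0.0835), and the mean of stages 2 and 3 differed from that of stages 1 and 4 by -0.72 ± 0.23 (adjusted p = 0.0879). These directions are given as values, since neither was called.

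Erbb4, a receptor for neuregulins and some EGFR ligands, was dim on nearly all arrays. Its 27 values averaged 3.74, and the stage medians were 3.46, 3.53, 4.09 and 3.77 in stages 1, 2, 3 and 4. Single arrays stood out at 5.17 in P9 replicate 3 and 5.78 in P20 replicate 3. The change in stage 4 against stage 1 was 0.47, with a 95% interval of -0.27 to 1.20 (adjusted p = 0.289).

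Among the ligands, Egf had the widest course of all 20 probe sets, with age means 6.59 log2 units apart. Its values were 3.37, 3.67 and 6.42 at E18, 4.43, 5.25 and 3.05 at E20, and 3.56, 2.72 and 5.65 at P0. They were 7.39, 5.96 and 6.77 at P2 and 6.81, 6.32 and 6.90 at P5. They were 8.05, 6.70 and 7.38 at P9, 9.14, 7.72 and 7.87 at P15, 10.21, 9.99 and 10.06 at P20, and 10.44, 10.66 and 10.61 at P25. The arrays of stage 1 scattered over more than 3 log2 units, from 2.72 to 6.42 with a median of 3.67. The 6 arrays of stage 4 lay within 0.7 of each other.

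Egf was higher by 6.09 ± 0.47 log2 units in stage 4 than in stage 1, or a fitted 68.2-fold (limma, adjusted p = 2.84e-09), with no overlap. The stage 1 mean of 4.24 is near the lower end of the scale, where background signal can compress differences, so the fold is approximate and may understate the change. Relative to the median of all probe sets in that comparison the difference was 5.90. The rise was called in 2 of the 3 steps between neighboring stages. Stage 2 was higher than stage 1 by 2.46 ± 0.47 (adjusted p = 0.00392), where 1 of 20 members was higher against 1.63% of all probe sets and 0 of 20 were lower against 1.33%. Stage 3 differed from stage 2 by 1.12 ± 0.51, which was not called (adjusted p = 0.298). Stage 4 was higher than stage 3 by 2.52 ± 0.51 (5.72-fold, adjusted p = 0.00323), again with no overlap.

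Between neighboring ages 0 of 20 members were called by limma in any of the 8 steps. Calls were rare among all probe sets too, with 0.0161% in E20 against E18, 0.0129% in P0 against E20, 0.184% in P2 against P0, 0.00644% in P5 against P2, 0.029% in P9 against P5, 0.0612% in P15 against P9, 0.358% in P20 against P15 and 0.921% in P25 against P20. At an unadjusted p under 0.05 in limma there were 3 members in E20 against E18, 3 in P2 against P0, 3 in P20 against P15 and 4 in P25 against P20, and 0 in the other steps. The share of all probe sets at this unadjusted threshold was not taken, so these counts are not read as changes of the members. For Egf the P2 arrays averaged 6.71 and the P0 arrays 3.98, a difference of 2.73 ± 0.72 (adjusted p = 0.171) with no overlap. The P20 arrays averaged 10.09 and the P15 arrays 8.24, a difference of 1.84 ± 0.72 (adjusted p = 0.449), also with no overlap. The share of all probe sets without overlap in these steps was not taken, so the separation of 3 arrays from 3 is not read as a change. Stage 3 against stage 2 had 0 of 20 members higher, against 0.28% of all probe sets, and 0 lower, against 0.48%. It had 2 at an unadjusted p under 0.05, Egf and the brightest Egfr probe set, again with no share of all probe sets to set beside them.

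The acinar marker list (among them Bpifa2, the parotid secretory protein, Amy1, salivary amylase, and Aqp5, the water channel) moved in the same direction as Egf. All 7 of its genes were higher in stage 4 than in stage 1, and its mean level ranged from 12.21 to 12.70 in stage 4 and from 5.14 to 7.87 in stage 1. In stage 4 against stage 3, 5 of the 7 were higher, with stage 3 levels of 8.69 to 9.92. Other lists moved with the earlier step, stage 2 against stage 1. The adipocyte list (Adipoq, Plin1, Cidec, Fabp4, Lep) had 4 of 5 genes higher, with a mean level of 5.60 to 8.11 in stage 2 and 4.52 to 6.03 in stage 1, and in stage 4, at 4.80 to 6.24, 1 of 5 was higher than in stage 1. In stage 2 against stage 1, 3 of 7 acinar, 3 of 6 basal and myoepithelial, 2 of 8 duct, 2 of 6 epidermis and 1 of 3 Schwann cell genes were also higher, and 2 of 4 cartilage genes were lower. The part of these lists in the Egf result was not tested. With the marker levels of cartilage, epidermis and muscle as covariates, the Egf change in stage 2 against stage 1 was 1.79 and no longer called (adjusted p = 0.56). Those in stage 4 against stage 3 (2.13, adjusted p = 0.0215) and stage 4 against stage 1 (5.11, adjusted p = 0.000122) were still called. Cartilage levels were 7.03 to 11.65 in stage 1, 5.83 to 6.24 in stage 2 and 5.51 to 6.21 in stage 4. In comparisons with stage 1 this fit can therefore hardly tell cartilage level and stage apart.

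No change of the other EGFR ligands was called. Areg (amphiregulin) ranged from 3.33 to 4.08 in stage 4 and from 3.08 to 4.02 in stage 1, and the change was 0.29, with a 95% interval of -0.34 to 0.92. A single array, P9 replicate 1, reached 6.05, while the other 26 lay between 3.08 and 4.77. On that array the second Egfr probe set also had its highest value, 10.24.

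Tgfa (TGF-alpha) was measured by 2 probe sets that did not move together. The brighter one (1387450_at) ranged from 4.30 to 6.29 in stage 4 and from 4.25 to 6.03 in stage 1, and the change was 0.26, with an interval of -0.45 to 0.97. The other (1381449_s_at, a type that transcripts of different genes may share) changed by -0.35, with an interval of -1.31 to 0.61. Neither passed the F test or any contrast.

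Btc (betacellulin) had the narrowest course among the EGFR ligands, with age means within 0.74 log2 units. It ranged from 4.92 to 5.71 in stage 4 and from 4.72 to 6.37 in stage 1, and the change was -0.13, with a 95% interval of -0.63 to 0.37. A change of Btc of more than 1 log2 unit in either direction lies outside that interval.

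Hbegf (HB-EGF) was near the lower end of the scale on nearly all arrays. It ranged from 2.61 to 3.79 in stage 4, with a median of 3.05, and from 2.63 to 6.57 in stage 1, with a median of 3.04. The top of that range was 1 array, E18 replicate 1, which also had the highest cartilage marker level (11.65) of all 27 arrays and the highest epidermis marker level (9.53) of stage 1. E20 replicate 1 (4.45) and P5 replicate 1 (4.68) followed, with skeletal muscle marker levels of 12.46 and 11.39. On other arrays of high muscle level Hbegf was lower: 2.98 in P9 replicate 3 (muscle level 12.63, the highest of all), 2.72 in P0 replicate 1 (11.90) and 2.67 in P5 replicate 3 (11.60). Over all 27 arrays, Hbegf and the list levels were also correlated as deviations from their age means. The highest Pearson's r were 0.59 (basal and myoepithelial), 0.56 (cartilage), 0.54 (skeletal muscle) and 0.53 (epidermis), and the lowest was -0.75 (acinar). E18 replicate 1 enters all of them. The change in stage 4 against stage 1 was -0.42 ± 0.42, not called (adjusted p = 0.425), and the part of the surrounding tissue in these values was not tested.

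**Figure D3:**
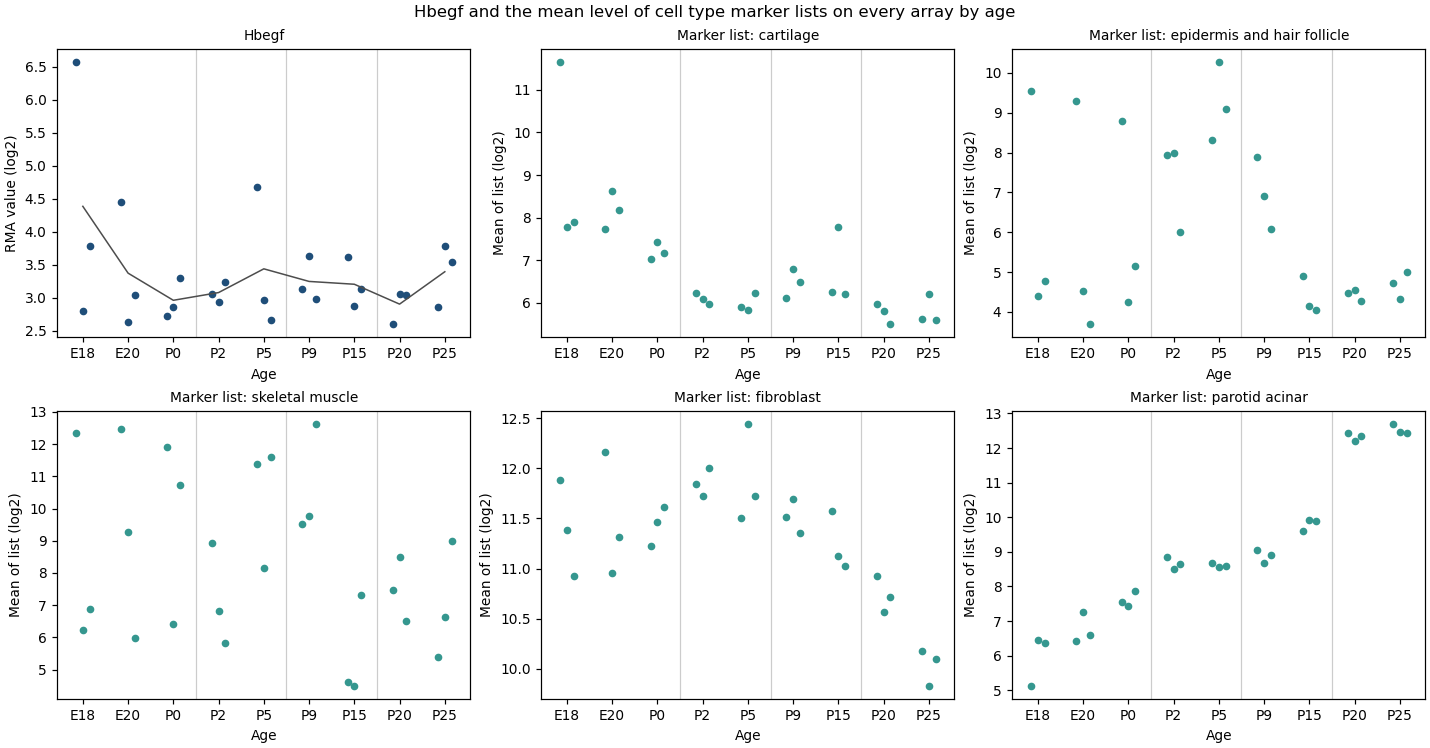
Log2 RMA value of Hbegf and mean log2 level of 5 marker lists on every array by age (3 points at each age). The line joins Hbegf age means, and vertical lines part the stages. The array with the highest Hbegf value, E18 replicate 1 at 6.57, is also the highest of the cartilage panel, and the acinar list lies above 12 only at P20 and P25.

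Nrg1 encodes many neuregulin isoforms through alternative promoters and splicing, and the array carries 8 probe sets for it. Which exons each one reads was not determined here. In stage 4 against stage 1, 7 of the 8 had negative changes and 6 were called. The changes called were -3.37 ± 0.68 for 1371211_a_at (adjusted p = 0.000556), -1.71 ± 0.35 for 1371212_at (adjusted p = 0.000595), -1.27 ± 0.45 for 1371218_a_at (adjusted p = 0.027), -0.98 ± 0.36 for 1388258_at (adjusted p = 0.0306), -0.88 ± 0.27 for 1388245_a_at (adjusted p = 0.0135) and -0.79 ± 0.30 for 1369783_a_at (adjusted p = 0.0367). The same fall in several probe sets is 1 observation on the gene, made on shared arrays.

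The brightest Nrg1 probe set (1371211_a_at) read 8.11, 8.83 and 10.91 at E18, 8.14, 8.91 and 10.30 at E20, and 10.09, 10.78 and 10.44 at P0. It read 8.23, 7.76 and 8.28 at P2 and 7.36, 9.35 and 8.02 at P5. After that the arrays of an age came apart: 4.79, 9.30 and 4.29 at P9, 6.14, 8.19 and 8.85 at P15, and 7.19, 10.13 and 6.96 at P20. The 3 arrays of P25 were all low, at 3.94, 4.29 and 4.92. P25 was lower than E18 by 4.90 ± 1.05, or a fitted 29.8-fold (adjusted p = 0.00181), with no overlap; the P25 mean of 4.38 is near the lower end of the scale, so this fold too is approximate and may understate the change. Stage 4 and stage 3 differed by -0.69 ± 0.75 (adjusted p = 0.604).

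The other probe sets of Nrg1 had flatter courses. Besides the brightest one, 1371212_at and 1388245_a_at passed the F test (adjusted p = 0.0382 and 0.0442). The probe set 1371212_at read 5.51, 7.68 and 7.76 at E18, 7.02, 7.69 and 6.99 at E20, 8.16, 7.45 and 7.95 at P0, 5.37, 5.39 and 6.19 at P20, and 4.43, 5.93 and 6.56 at P25. Its groups overlapped through E18 replicate 1 alone, the other 8 arrays of stage 1 lying above all 6 arrays of stage 4. The probe set 1388245_a_at read 4.68, 5.27 and 5.49 at E18 and 5.83, 7.79 and 6.63 at E20, so its highest age mean was at E20, and it ranged from 4.36 to 5.54 in stage 4. In P25 against E18, 1388258_at was the only further one called, at -1.49 ± 0.56 (adjusted p = 0.0436). The dim probe set 1370607_a_at changed by -1.0 ± 0.42 in stage 4 against stage 1 (adjusted p = 0.0565), and the other dim one, 1370616_at, by 0.32 ± 0.18 (adjusted p = 0.151). Leaving out single arrays ended the calls of 3 of the 6: 1369783_a_at in 8 of 27 cases, 1388258_at in 7 and 1371218_a_at in 6, by E18 replicate 2, E20 replicate 2, P20 replicate 3 or P25 replicate 3 for each. Further arrays did so for 1 or 2 of them: E20 replicate 3, P0 replicates 2 and 3 and P25 replicate 2 for 1369783_a_at, E18 replicate 3 and P20 replicate 1 for the other two, and P25 replicate 1 for 1388258_at. The call of 1388258_at in P25 against E18 was lost in 6 cases, without E18 replicate 2 or 3, P0 replicate 1 or any array of P25. Over all 27 cases, with the call lost or kept, its change ran from -0.98 to -2.27. The call was lost as well with quantile normalization (-1.32, adjusted p = 0.0951) and when the fit held P25 and E18 alone (-1.49, adjusted p = 0.164). With the marker covariates the calls of 1369783_a_at (-0.94, adjusted p = 0.202) and 1388245_a_at (-1.08, adjusted p = 0.114) in stage 4 against stage 1 and of 1371211_a_at in P25 against E18 (-5.08, adjusted p = 0.0662) were lost, though none of these changes was smaller than without the covariates. With quantile normalization 1369783_a_at (adjusted p = 0.145) and 1388258_at (adjusted p = 0.0861) were not called in stage 4 against stage 1, and with only the ages compared in the fit 1388258_at (adjusted p = 0.0745) and 1371218_a_at (adjusted p = 0.0585) were not. The calls of 1371211_a_at and 1371212_at in stage 4 against stage 1 held under all settings tried.

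**Figure D4:**
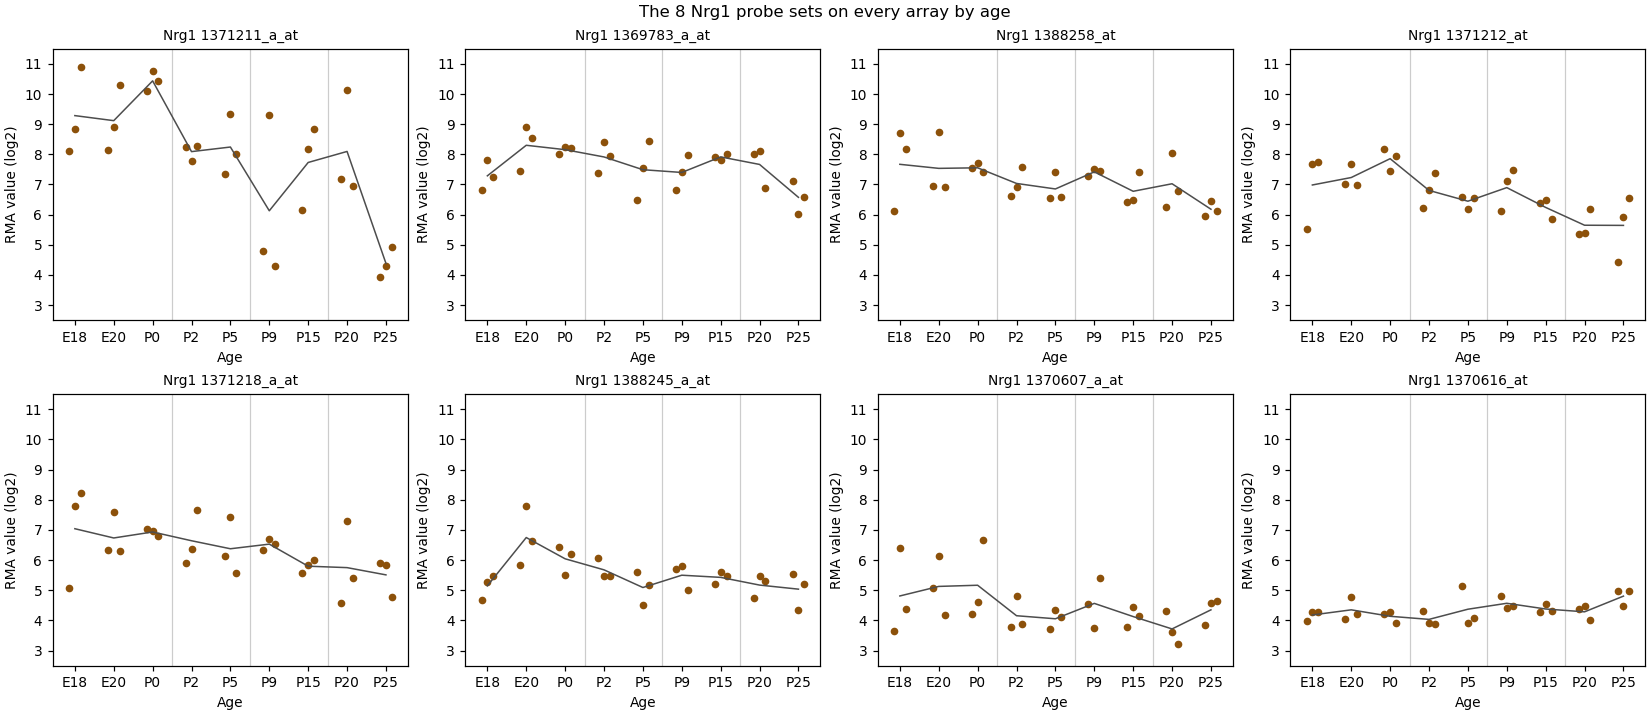
Log2 RMA value of the 8 Nrg1 probe sets by age, ordered by mean level. Points are single arrays (3 at each age), lines join the age means, and vertical lines part the stages. The lowest age mean is that of P25 in the 6 brighter panels, and the last 2 panels average 4.45 and 4.34 over the 27 arrays.

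Taken as a mean over its probe sets, Nrg1 was 1.21 ± 0.23 log2 units lower in stage 4 than in stage 1, passing the threshold (adjusted p = 0.000282), and Egfr was 1.67 ± 0.14 lower (adjusted p = 5.14e-09). Schwann cells, a cell type known to use neuregulin, were followed by Mbp, S100b and Pmp22. None of these 3 was called in stage 4 against stage 1, and their mean level ranged from 5.83 to 6.82 in stage 4 and from 5.52 to 7.32 in stage 1. The fibroblast list had 5 of 6 genes lower in stage 4 than in stage 1, where 22.7% of all named genes were lower and 25% higher. Lower as well were 2 of 4 cartilage genes, Col2a1 (-4.35) and Col9a1 (-4.62), 2 of 7 skeletal muscle genes, Myh3 (-4.73) and Myh8 (-3.68), 3 of 6 basal and myoepithelial genes, Krt5 (-3.06), Krt14 (-2.54) and Tp63 (-2.85), and 1 of 8 duct genes, Krt19 (-2.32). The other 3 basal and myoepithelial genes, Acta2 (1.61), Cnn1 (1.48) and Myh11 (2.87), and 4 duct genes were higher. No gene of the endothelium, macrophage, adipocyte, or epidermis and hair follicle lists was lower, and 1 adipocyte gene was higher. With the marker levels of cartilage, epidermis and muscle as covariates in limma, both brighter Egfr probe sets were still called in stage 4 against stage 1. Their changes were -1.75 (adjusted p = 0.00931) for the brightest and -3.07 (adjusted p = 0.000196) for 1381145_at. Cartilage levels did not overlap between stage 4 and stage 1, so these fits can hardly tell cartilage level and stage apart. Beyond such fits the part of these lists in the Nrg1 and Egfr results was not tested.

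**Figure D5:**
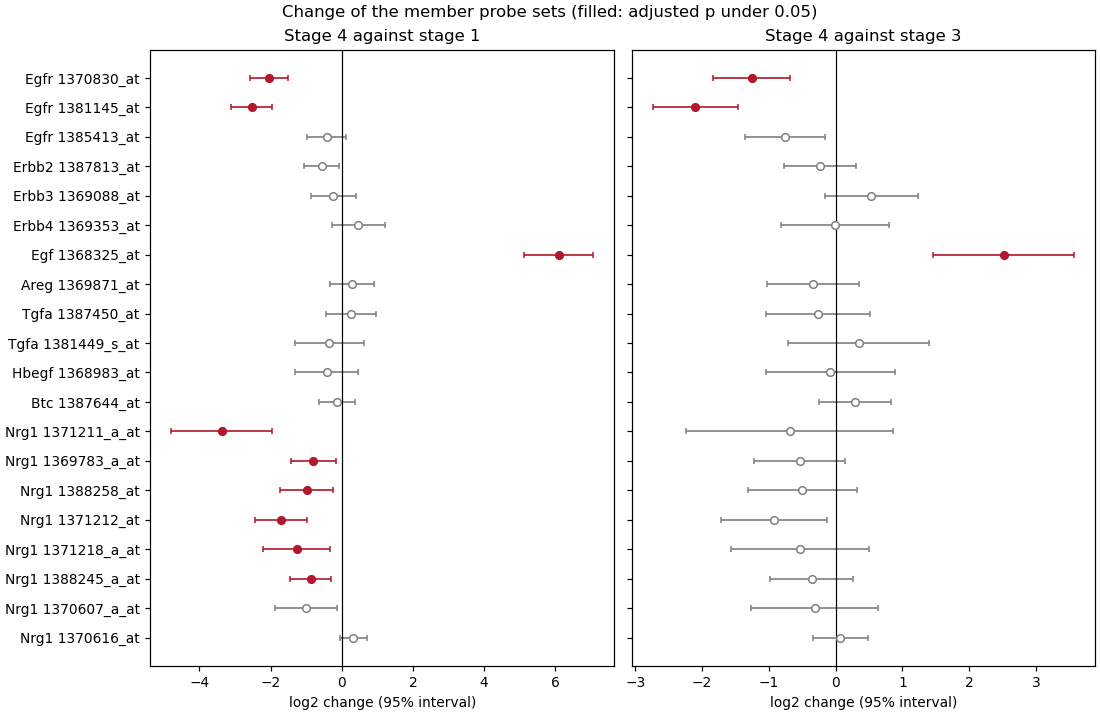
Log2 change of each member probe set in stage 4 against stage 1 (left) and in stage 4 against stage 3 (right), with 95% intervals from limma. Filled points passed an adjusted p of 0.05; Egf lies to the right in both panels, both brighter Egfr probe sets to the left in both, and the filled Nrg1 points are in the left panel only.

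Other genes of the pathway were taken from lists of 70 genes, of which 56 had a probe set of their own. By the brightest probe set of each gene, 19 of 56 passed the F test, against 28% of all named genes. In stage 4 against stage 1, 8 of 56 were higher (14.3%), against 25% of named genes, and 20 were lower (35.7%), against 22.7%. In stage 4 against stage 3, 2 of 56 were higher, against 5.02%, and 5 were lower, against 5.27%. The other 14 listed genes were not analysed here. The counts by list that follow are for stage 4 against stage 1 and stand beside the same 25% higher and 22.7% lower.

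Of the 13 transcripts that ERK signaling is known to induce, 3 were higher and 5 lower in stage 4 than in stage 1. Etv5, an ETS factor downstream of growth factor receptors, ranged from 4.22 to 6.28 in stage 4 and from 7.14 to 9.26 in stage 1, a change of -3.54 ± 0.42 (adjusted p = 1.43e-06) with no overlap. Egr1, an immediate early factor, ranged from 7.62 to 9.66 in stage 4 and from 9.37 to 11.95 in stage 1, a change of -2.13 ± 0.24 (adjusted p = 5.38e-07). It was also lower in stage 4 than in stage 3, by 1.52 ± 0.26 with no overlap (adjusted p = 0.000655). Fos changed by -2.63 ± 0.54 in stage 4 against stage 1 (adjusted p = 0.000607), with a wide spread of 3.30 to 8.78 over the arrays of stage 1, and 1 of its 2 probe sets was lower. The 3 that were higher, named after their values were seen, were the AP-1 subunit genes Fosl1 (0.57) and Junb (0.68) and Phlda1 (1.46), so the list did not move one way.

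Of the 11 feedback inhibitors measured, 2 were higher and 6 lower in stage 4 than in stage 1. Errfi1, which binds and inhibits the EGFR kinase, changed by -1.08 ± 0.21 (adjusted p = 0.000349), with its highest age mean at P0 (10.26) and its lowest at P9 (7.88). Its age means were 9.55 at P20 and 7.95 at P25, against 9.39 at E18. Stage 4 ranged from 7.14 to 9.89 and overlapped stage 1, at 9.25 to 10.49. Spry1, a Sprouty that dampens RAS and ERK signaling, changed by -1.40 ± 0.23 (adjusted p = 6.05e-05). Dusp5, a phosphatase of nuclear ERK, went the other way: it ranged from 3.97 to 5.52 in stage 4 and from 2.75 to 3.95 in stage 1, a change of 1.68 ± 0.23 (adjusted p = 7.79e-06) with no overlap.

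Of the 13 kinase cascade genes measured, 1 was higher and 4 were lower in stage 4 than in stage 1. Akt1, the kinase downstream of PI3-kinase, changed by -1.43 ± 0.17 (adjusted p = 1.61e-06), and Plcg1, phospholipase C gamma, by -1.20 ± 0.19 (adjusted p = 3.76e-05), each with no overlap. Akt1 has 3 probe sets, of which 2 were lower. Stat5a, a transcription factor that ERBB4 can engage, was higher by 1.21 ± 0.24 (adjusted p = 0.000441). Among the 10 adaptors and ubiquitin ligases 3 were lower and 0 higher. One of them was Cbl, which marks activated EGFR for degradation, at -0.86 ± 0.18 (adjusted p = 0.000943), with 2 of its 4 probe sets lower.

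Of the 3 other ligands measured (Ereg, Nrg2 and Nrg4), 2 were higher in stage 4 than in stage 1. Nrg4, a neuregulin that binds ERBB4, ranged from 5.21 to 5.98 in stage 4 and from 4.04 to 5.22 in stage 1, a change of 0.68 ± 0.16 (adjusted p = 0.00191). Among the 6 shedding genes 2 were lower and 0 higher, Adam17 (-0.77), the main sheddase of several EGFR ligands, and Adam10 (-0.69), which sheds EGF and betacellulin in mouse cells. They are named because the count is small, after their values were seen, and the median change of all 6 shedding genes was 0.25.

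The genes whose brightest probe set followed a member most closely were ranked by Pearson's r over the 9 age means, among 3985 other named genes past the F test. For Egf they were Rnase1l2 (r = 0.991), Reep5 (0.990) and Cd1d1 (0.989). For Egfr they were Pxdn (0.993), Dtnbp1 (0.992) and Lama5 (0.990), and for Nrg1 Hdgf (0.982), Mbtd1 (0.968) and Cdc123 (0.967). These are descriptions over 9 points from shared arrays, chosen as the highest of many. The sizes differed beside the like shapes: Rnase1l2 averaged 12.52 in stage 4 and 4.18 in stage 1, and Reep5 13.38 in stage 4 and 11.48 in stage 1.

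Facts of the whole series that bear on these values are few. Array medians lay between 5.91 and 6.13, arrays of the same age correlated at 0.873 to 0.962, and no arrays were identical. The GAPDH 3′ minus 5′ difference, a sign of RNA length, was 1.29 to 1.97 in stage 4 and 1.21 to 2.76 in stage 1. Skeletal muscle markers, foreign to the gland, ranged from a mean level of 4.51 to 12.63 over the arrays. The 4 arrays left out together as an alternative had epidermis marker levels of 8.80 to 10.28, and P5 replicate 3, at 9.10, was kept. Without the 4 arrays the Egf and Egfr calls in stage 4 against stage 1 and against stage 3 held, at 5.87 and 2.52 for Egf and -2.10 and -1.25 for the brightest Egfr probe set.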

How the data were processed

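Total RNA of laser-captured parotid acinar cells was amplified and hybridized by the authors to 27 Affymetrix rat genome arrays. The deposited values are log2 levels that the authors made by RMA (background correction, normalization between arrays and a summary of each probe set). A software version is not given in the sources used here. The amplification started from 1 of 2 amounts of RNA per the labels, which do not say which array had which. The values were used as deposited. Of 31099 probe sets, 57 controls were left out. GEO's platform annotation gave 1 symbol for 20826, several for 436 and none for 9780, and symbols were updated through RefSeq for 20758. No filter on dim probe sets was set in the main fit, and 13 of the 20 members had a mean of at least 5.

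limma 3.58.1 in R 4.3.3 was fitted to all arrays with 1 coefficient per age (18 residual degrees of freedom), followed by eBayes and Benjamini-Hochberg adjustment over 31042 probe sets at 0.05. SE is limma's moderated standard error. The fit was tested on simulated data. The members, lists and stage contrasts were chosen with earlier results of these data known. Members were named with all their probe sets, pathway genes by the widest range of age means among those past the F test (up to 3 per list, leading probe set), and like genes by the highest r. Alternatives were array centring, quantile normalization, array weights, a variance trend, a dim filter, a block, fewer arrays, marker covariates and gene means. The number of arrays limits the precision. The labels and the methods name different RNA isolation kits.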

Additional observations from a re-analysis of the deposited data

Results flagged for a closer look

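In 9 of the 80 combinations of member probe set and stage, 1 array stood apart from the rest of its stage by a gap that is large for the stage's range. Among the receptors these were Erbb2 in P25 replicate 2, at 6.18 against 6.93 for the next array of stage 4, and Erbb4 in P20 replicate 3, at 5.78 against 3.89. Among the ligands they were Areg in P9 replicate 1, at 6.05 against 3.80, and the Tgfa probe set 1381449_s_at in P2 replicate 3, at 6.70 against 4.57. Hbegf had 2, E18 replicate 1 at 6.57 against 4.45 and P5 replicate 1 at 4.68 against 3.24. Nrg1 had 3: 1371212_at was low in E18 replicate 1, at 5.51 against 6.99, and 1370616_at was high in E20 replicate 2, at 4.79 against 4.29, and in P5 replicate 1, at 5.15 against 4.30. E18 replicate 1 and P5 replicate 1 each stood apart for Hbegf and for a probe set of Nrg1.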

How the results depend on the processing

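Of the alternative settings tried, none reversed a result: 1101 values kept their side of the threshold or stayed within 1.5 times the count, 40 kept their direction but missed the threshold, and 20 counts moved further. For member probe sets lower in stage 4 than in stage 1 (8 of 20), leaving out single arrays gave 5 to 9, with 5 without E18 replicate 2, E20 replicate 2, P20 replicate 3 or P25 replicate 3. For P25 against E18, 4 lower became 3 to 7, with 7 without E18 replicate 1 and 7 without the 4 arrays of high epidermis markers, and 1 higher became 1 to 2 (2 without P5 replicate 1). For stage 2 against stage 1, 0 lower became 0 to 1 (1 without E18 replicate 1) and 1 with array weights, and 1 higher became 0 with marker covariates. For stages 2 and 3 against 1 and 4, 1 higher became 1 to 2 (2 without P20 replicate 1 or P25 replicate 2), 0 without the 4 arrays and 0 with marker covariates; 0 lower became 0 to 1 (1 without E18 replicate 1, P2 replicate 3 or P15 replicate 1) and 1 with array weights; and by gene, 0 higher became 1 with gene means. In stage 4 against stage 3, 2 lower became 1 with only the arrays of those ages. The causes were not tested. With the replicate number as a block, 5 of 20 members passed the F test and 8 were lower in stage 4 than in stage 1; no called change between stages or ages was lost. The arrays of an age come from separate litters per the methods, and neither the methods nor the sample titles describe equal numbers as pairs. Residuals of arrays with the same number correlated at 0.0255 on average (-0.108 to 0.459), and those with different numbers at -0.0127 (-0.279 to 0.141). The highest value of the same number lay above all of different number, and its cause was not tested. Dim probe sets such as Erbb4, Areg and Hbegf lie near the lower end of the scale, where a fall could not be seen. So do most Egf values of stage 1 and the brightest Nrg1 probe set at P25, and folds against these are approximate.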
